A study of Homo sapiens with 70 samples.

Results

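The response of p53-depleted senescent fibroblasts to loss of the transcription factor C/EBPbeta was read from 10 libraries of the 70 in the series: the 5 OIS-shCEBPB-shp53 libraries against the 5 OIS-shp53 libraries, chosen by their labels. All 10 were IMR90 cells, normal human lung fibroblasts, carrying the ER:HRAS G12V fusion in the vector pLNCX2, which 4-hydroxytamoxifen (4OHT) activates, and all had 6 days of 100 nM 4OHT, which brings on oncogene-induced senescence (OIS). All also carried the p53 hairpin in a pMSCV miR vector. OIS-shCEBPB-shp53 cells carried in addition the CEBPB hairpin in pSuper, and OIS-shp53 cells the empty pSuper. 3 further groups of 5 from the same count table served for comparison: OIS-v-v (both empty vectors, 6 days of 4OHT), OIS-shCEBPB (the CEBPB hairpin with the empty p53 vector, 6 days of 4OHT) and Grow-v-v (both empty vectors, no 4OHT). The labels name 1 construct per target, so an effect of a hairpin outside its target cannot be told apart from that of the knock-down. PolyA RNA was sequenced, and total counts per library ran from 15311687 to 24890797 in OIS-shp53 (median 19407008) and from 15861794 to 18359200 in OIS-shCEBPB-shp53 (median 18081635).

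C/EBPbeta is a basic leucine zipper factor that binds DNA as a dimer and is known, with NF-kB, for driving the cytokines, chemokines and proteases that senescent cells release, the senescence-associated secretory phenotype (SASP). It is also known from liver and fat, where it acts on acute-phase and adipocyte genes. p53 holds senescent cells in arrest through targets such as the CDK inhibitor CDKN1A. The comparison asks which transcripts depend on C/EBPbeta in OIS cells in which p53 has been lowered.

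The CEBPB hairpin was first checked in every library. CEBPB (hg19, chr20:48807376-48809212) stood at 338, 334, 332, 316 and 303 CPM (counts scaled to library size, by the trimmed mean of M values) in OIS-shp53 replicates 1 to 5 and at 31.4, 34.3, 38.9, 28.4 and 29.8 CPM in OIS-shCEBPB-shp53. The groups were far apart, with a log2 fold change of -3.34 ± 0.05 (SE), a 10.1-fold fall (edgeR quasi-likelihood test, adjusted p = 8.01e-15). The level of the transgene's gene was not equal in the groups: HRAS reads, from the fusion and the endogenous gene together, fell from 1058, 1030, 1085, 1024 and 1059 CPM to 643, 633, 670.4, 681 and 682 CPM, 1.61-fold with no overlap (adjusted p = 8.24e-10). HRAS was added to the named genes after its values were seen.

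Of the markers fixed for other cell types, KRT5, KRT14, SFTPC, NKX2-1 and HBA1 had no count in the 10 libraries and PTPRC had 11 in all, while the 11 fibroblast markers were all detected. Other members of those lists had reads, with 14532 counts for the keratin KRT18, 2214 for KRT8 and 10547 for the lysosomal CD68 over the 10 libraries. The summed level of 5 smooth muscle markers was 122 to 151 CPM in OIS-shCEBPB-shp53 against 73.7 to 84.3 CPM in OIS-shp53, almost all of it ACTA2 and CNN1, with MYH11 and DES near 0. The summed level of 5 endothelial markers was 59.6 to 67.8 against 69.2 to 89.3 CPM, most of it TEK. Both gaps gave an exact two-sided permutation p = 0.0079, the smallest that 5 against 5 allows. In bulk libraries, fewer cells of a type and less RNA per cell cannot be told apart. Replicates 1 to 3 stood apart from replicates 4 and 5 in both groups, on a component holding 25.4% of the variance, and the labels name no batch for them. The labels list more than 1 library kit and sequencer without tying them to libraries. Replicate number was kept as a block.

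Of 13428 genes tested, 2729 (20.3%) rose and 2721 (20.3%) fell with C/EBPbeta knock-down, 5450 in all (40.6%). Changes of at least 2-fold were more often falls, with 332 genes lower (2.47%) and 226 higher (1.68%). The groups did not overlap for 1538 higher genes (11.5%) and 1243 lower genes (9.26%). With library sizes alone as the scaling, the median over all genes moved to 0.09 on the log2 scale and 73.4% of calls were rises, against 50.1% with the main scaling. The 10 highest genes took 7.9 to 8.11% of counts in OIS-shCEBPB-shp53 and 9.31 to 9.69% in OIS-shp53. Of the 5398 called genes that could be tested in both replicate sets, 5334 (98.8%) kept their direction in each set, and 3297 were called in both. These genes were called from both sets together, so their shared direction is largely set by that choice. Without that choice, 3400 genes were called in both sets, and 103 of them went in opposite directions.

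12 genes that fell were taken by size of change. HSD11B1, which regenerates active glucocorticoid, fell from 3.56, 3.35, 2.47, 4.15 and 2.69 CPM to between 0 and 0.107 CPM, which is 0 to 2 counts per library. Its fitted log2 fold change of -5.74 ± 0.32 rests on those few counts. SERPINB4, a squamous serpin with a near-identical neighbour, SERPINB3, from which its reads may not be fully separated, fell from 65.3, 63.8, 63.1, 19.8 and 19.6 CPM to 1.06, 1.5, 1.34, 0.742 and 0.715 CPM. ALOX5AP, the partner of 5-lipoxygenase in leukotriene synthesis, fell from 4.69, 6.94, 6.4, 1.4 and 1.22 CPM to at most 0.215 CPM. PI3, the elastase inhibitor elafin, fell by 4.77 on the log2 scale and TREM1, an amplifier of myeloid inflammatory signals, by 4.20. MEDAG, an adipogenesis gene, IGFBP1, an IGF-binding protein, and THBD, thrombomodulin, fell by 4.15, 4.09 and 3.38. The rule that named these 12 genes required that the groups did not overlap, so that is no result of its own. The others of the 12 were the cytokines CCL20 and IL24, the decoy receptor IL13RA2 and FER1L6.

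The 12 rises were chosen by the same rule. DCLK3, a kinase gene, went from 0 to 0.299 CPM in OIS-shp53 to 3.66, 3.43, 3.21, 2.44 and 2.32 CPM, and rests on 0 to 5 counts per OIS-shp53 library. APCDD1, a Wnt antagonist, rose from 2.93, 3.41, 3.41, 1.55 and 2.05 CPM to 20, 20.3, 19.9, 16.6 and 16.9 CPM, 6.99-fold (adjusted p = 8.87e-11). SFRP2, another, rose by 3.06 ± 0.34 on the log2 scale. ELOVL2, a fatty acid elongase, rose from 2.18, 2.1, 2.15, 2.17 and 1.86 CPM to 12.3, 13.9, 11.3, 12.5 and 11.3 CPM. CAVIN2, a caveola coat protein, rose 6.15-fold, and the interferon-responsive CXCL11 and OAS1 rose 5.54-fold and 5.68-fold. ADAMTSL1, SLC7A14, CST2 and TMEM108 were also among the 12, of which CST2 has close cystatin paralogs. ELOVL2 and APCDD1 lay apart between the groups by several times the spread within either. The rule required that the groups did not overlap for the 12 rises as well, so their separation is no result of its own.

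**Figure D1:**
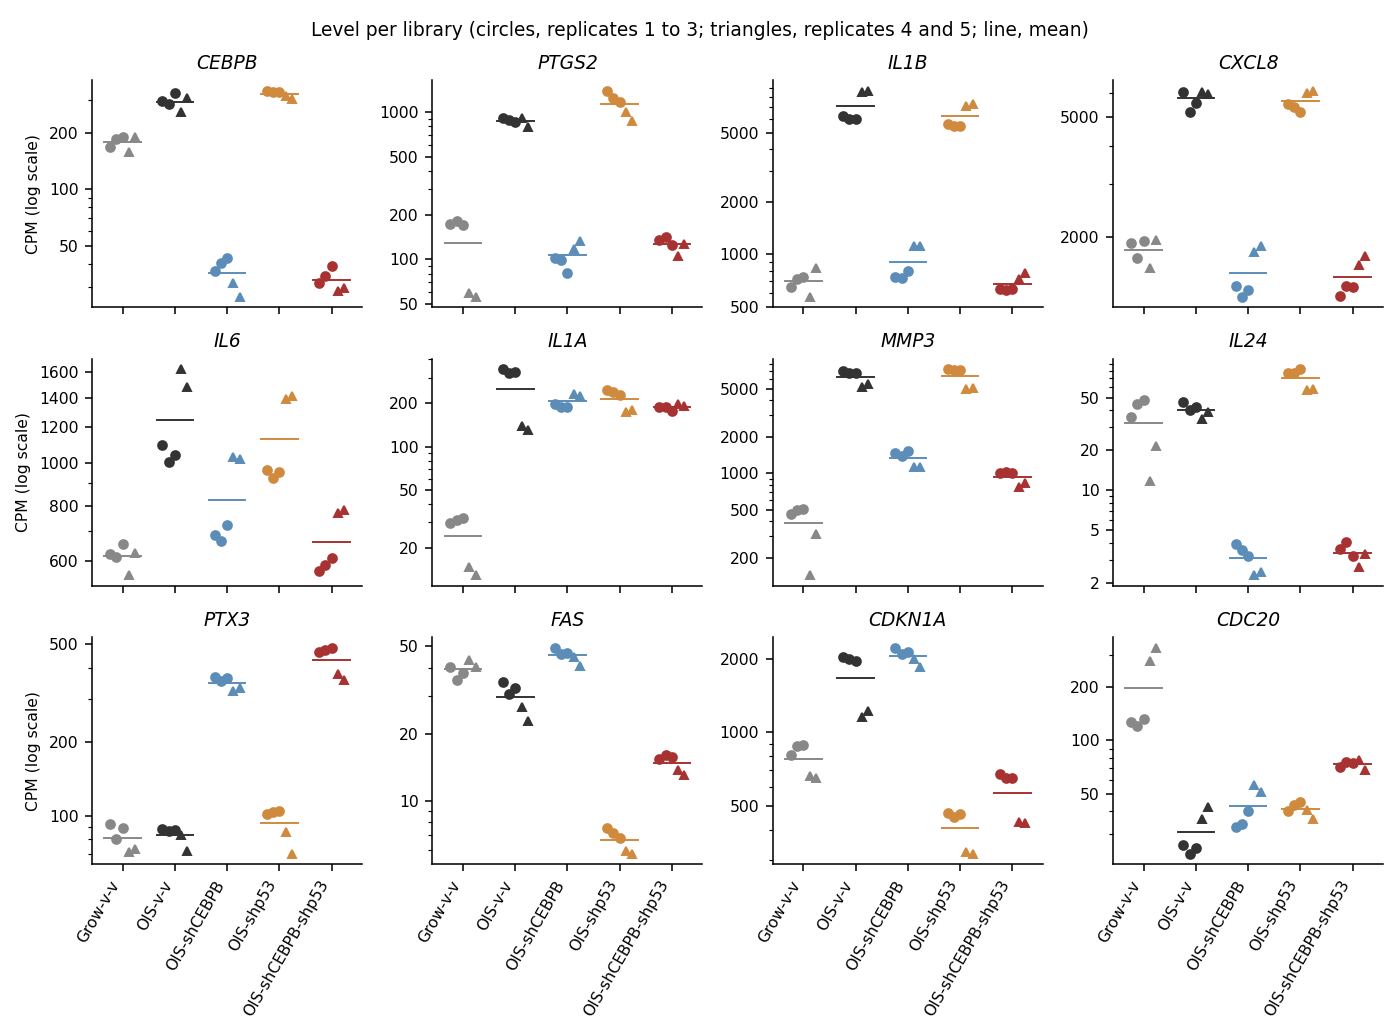
CPM on a log axis for 12 genes in each library of the 5 groups; circles are replicates 1 to 3, triangles replicates 4 and 5, and the line is the group mean. IL1B, CXCL8, PTGS2, MMP3 and IL24 lay far lower in both groups with the CEBPB hairpin than in the OIS groups without it, PTX3 lay higher in both, FAS lay higher with the hairpin within each p53 background, and IL1A overlapped between OIS-shp53 and OIS-shCEBPB-shp53.

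SASP cytokines and chemokines fell as a group. Of 21 tested, 16 fell (76.2%) and 2 rose (9.52%), with a median log2 fold change of -1.57 against 0.00 over all genes tested. The 16 that fell showed no overlap between groups. Over all genes tested, 20.3% were called each way and 9.26% were lower without overlap. IL1B, the secreted interleukin 1 that amplifies the SASP, measured 5596, 5442, 5464, 7094 and 7314 CPM in OIS-shp53 and 633, 623, 627, 719 and 777 CPM in OIS-shCEBPB-shp53, 9.21-fold lower (adjusted p = 1.24e-15). Grow-v-v cells held 651, 717, 739, 569 and 832 CPM, so the knock-down libraries lay in the range of cells without 4OHT. CSF3, the granulocyte growth factor G-CSF, fell from 427, 422, 451, 430.5 and 422 CPM to 42.3, 40.8, 41.5, 46.3 and 53.1 CPM. IL24 fell from 77.1, 76, 82, 56.6 and 57.9 CPM to 3.61, 4.08, 3.21, 2.65 and 3.34 CPM, a 20.9-fold change. Each of these cytokines moved the same way in all 5 same-numbered pairs.

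The neutrophil chemokines of the CXC family fell by differing amounts. CXCL8 (IL8) went from 5550, 5399, 5211, 6022 and 6129 CPM to 1274, 1371, 1366, 1617 and 1730 CPM, 3.91-fold lower (adjusted p = 1.53e-13). CXCL5, CXCL2, CXCL3, CXCL1 and CXCL6 had log2 fold changes of -2.63, -1.78, -1.57, -1.32 and -0.97. The CC chemokine CCL20 fell 26.2-fold, to between 0.265 and 0.875 CPM. CXCL1, CXCL2 and CXCL3 are close in sequence, and reads may be shared among them. IL33, an alarmin of the IL1 family that lay too low for the naming rule, had a log2 fold change of -4.22. LIF, IL11, BMP2 and INHBA, cytokines of the IL6 and TGF-beta families, had log2 fold changes of -2.49, -1.70, -1.35 and -0.90.

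IL6 itself fell less. It measured 961, 921, 953, 1390 and 1411 CPM in OIS-shp53 and 571, 589, 608, 769 and 782 CPM in OIS-shCEBPB-shp53, a 1.7-fold fall with no overlap (adjusted p = 1.79e-09). IL1A, the membrane-bound interleukin 1 that starts the SASP cascade, did not pass the test: it measured 246, 239, 228, 174 and 180.1 CPM in OIS-shp53 and 188, 189, 176, 197 and 192 CPM in OIS-shCEBPB-shp53 (log2 fold change -0.18 ± 0.07, adjusted p = 0.0605). The replicate sets went opposite ways, with a log2 fold change of -0.38 in replicates 1 to 3 (adjusted p = 2.3e-22) and 0.12 in replicates 4 and 5 (adjusted p = 0.0114). CSF2 at -0.06 and TSLP at 0.34 did not pass the test either. The monocyte chemokine CCL2 went against the list, rising from 5.4, 5.51, 6.67, 8.79 and 6.48 CPM to 21.7, 24.5, 25.4, 21 and 22.7 CPM (log2 fold change 1.79, adjusted p = 6.89e-09). CXCL10, an interferon-induced chemokine, rose by 0.95.

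Acute-phase and C/EBP target genes split. Of 12 tested, 7 fell (58.3%) and 3 rose (25%), with a median of -0.82, beside 20.3% each way over all genes tested. PTGS2, the inducible cyclooxygenase, fell from 1403, 1251, 1178, 1006 and 872 CPM to 135, 143, 125, 105 and 128 CPM, 9.02-fold (adjusted p = 1.53e-13), and PTGES, which acts after it in prostaglandin E2 synthesis, had a log2 fold change of -3.10. Complement C3 fell from 147, 148, 137, 40.8 and 35.5 CPM to 32.4, 27.7, 26, 9.8 and 9.77 CPM, so its level also differed between the replicate sets. PTX3, a long pentraxin of innate immunity, rose from 102, 104, 105, 85.8 and 69.9 CPM to 466, 473, 485, 379 and 359 CPM, 4.6-fold (adjusted p = 1.76e-14). SAA1 and SAA2, near-identical acute-phase genes, both had log2 fold changes of -0.82. In replicates 4 and 5 alone the list's median was -0.23, with 6 members lower and 3 higher.

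Promoter sequence is shown for 4 of these genes, 3 that fell and 1 that rose, because each window holds the letters TTGCNNAA (or TTNNGCAA, its reverse complement), the core that C/EBP dimers are known to prefer. The windows run from 250 bases before the start to 50 after it (RefSeq, GRCh38.p14), 5′ to 3′ on the gene's strand, with the match in capitals. IL1B is at chr2:112836730-112837029, minus strand; PTGS2 at chr1:186680374-186680673, minus strand; IL6 at chr7:22726950-22727249, plus strand; PTX3 at chr3:157436600-157436899, plus strand.
IL1B: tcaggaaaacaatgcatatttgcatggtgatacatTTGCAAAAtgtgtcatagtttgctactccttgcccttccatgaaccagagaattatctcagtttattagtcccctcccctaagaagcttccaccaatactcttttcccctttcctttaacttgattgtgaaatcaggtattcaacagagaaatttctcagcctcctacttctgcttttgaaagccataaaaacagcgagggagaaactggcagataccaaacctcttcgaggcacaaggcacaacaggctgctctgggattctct
PTGS2: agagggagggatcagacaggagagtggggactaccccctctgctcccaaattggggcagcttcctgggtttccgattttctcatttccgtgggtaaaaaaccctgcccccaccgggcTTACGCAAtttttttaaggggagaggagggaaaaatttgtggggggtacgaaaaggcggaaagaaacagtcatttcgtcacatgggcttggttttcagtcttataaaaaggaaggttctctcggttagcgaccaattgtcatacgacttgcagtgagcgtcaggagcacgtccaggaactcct
IL6: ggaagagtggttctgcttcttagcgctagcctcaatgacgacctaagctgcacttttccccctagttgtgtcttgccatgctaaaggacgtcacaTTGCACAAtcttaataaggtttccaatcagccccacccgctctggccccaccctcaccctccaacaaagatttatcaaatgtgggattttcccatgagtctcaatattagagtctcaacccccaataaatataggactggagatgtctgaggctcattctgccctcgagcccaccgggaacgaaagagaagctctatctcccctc
PTX3: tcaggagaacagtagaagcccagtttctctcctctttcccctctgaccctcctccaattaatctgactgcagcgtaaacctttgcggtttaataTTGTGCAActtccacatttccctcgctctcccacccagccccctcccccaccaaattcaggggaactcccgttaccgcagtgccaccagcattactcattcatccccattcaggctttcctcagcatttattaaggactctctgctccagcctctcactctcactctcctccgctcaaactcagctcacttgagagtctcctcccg
The matches begin at -215, -133, -155 and -156 from the start, in that order. Of 35116 promoters in the table, 3673 (10.5%) held the letters on either strand, as did 7 of the 60 named genes with a single promoter entry. The 3 others were TREM1, which fell, and OAS1 and SFRP2, which rose. Any named gene on 1 of the chromosomes was left out of the 60, while the 35116 promoters cover that chromosome too. No share is given for the genes that fell or rose, because 10363 of 13428 genes tested (77.2%) had an entry, under the 80% needed. Matching letters describe the sequence and do not show binding.

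IL1 and NF-kB signalling genes moved in both directions, with 12 of 27 lower (44.4%) and 8 higher (29.6%), beside 20.3% each way over all genes tested. The median was -0.01, which library sizes alone turned to 0.08. ICAM1, the leukocyte adhesion receptor, fell from 442, 401, 397, 256 and 259 CPM to 210.2, 199, 182, 119 and 137 CPM, 2.09-fold (adjusted p = 2.55e-11). IL1RAP, the shared co-receptor of the IL1 family, fell 1.88-fold, the receptor IL1R1 had a log2 fold change of -0.27, and the kinases IRAK1, IRAK2 and IRAK3 had -0.48, -0.58 and -0.70. TNIP3, a brake on NF-kB, fell from 6.49, 6.7, 5.88, 5.17 and 6.16 CPM to 0.584, 0.966, 0.933, 1.11 and 1.13 CPM. The NF-kB subunits differed little: RELA at -0.05 and NFKB1 at -0.01 did not pass the test, while RELB and NFKB2 rose by 0.22 and 0.17. BIRC3, an anti-apoptotic NF-kB target, rose from 23.2, 18.9, 18.8, 16.6 and 15.9 CPM to 53.6, 60.2, 52.4, 59.6 and 54.3 CPM, 2.96-fold (adjusted p = 9.73e-10). BIRC3 and ICAM1, both known NF-kB targets, thus moved in opposite directions with no overlap for either.

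Among 22 matrix proteases and inhibitors, 13 fell (59.1%) and 6 rose (27.3%), with a median of -0.20, beside 20.3% each way over all genes tested. MMP3, stromelysin 1, fell from 7254, 7151, 7175, 4926 and 5092 CPM to 1003, 1014, 1009, 770.4 and 828 CPM, 6.86-fold (adjusted p = 8.01e-15). MMP1, the interstitial collagenase, fell from 23016, 22326, 22006, 22198 and 23239 CPM to 8868, 9088, 9267, 9501 and 10449 CPM, 2.42-fold. SERPINB2, the plasminogen activator inhibitor 2, and TIMP1, which blocks metalloproteinases, fell 3.39-fold and 2.55-fold. MMP7 and MMP10 had log2 fold changes of -2.23 and -1.67. TIMP3 and MMP11 rose by 1.22 and 1.17, and MMP2 at 0.04 did not pass the test. MMP1 and MMP3 each share exon bases with the pseudogene WTAPP1, 150 and 32 bases.

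Growth factor ligands and their binding proteins fell in 17 of 25 cases (68%) and rose in 5 (20%), with a median of -0.59. The share over all genes tested was 20.3% each way. The EGF family ligand EREG fell from 357, 319.8, 312, 516 and 451 CPM to 94.3, 102, 87.5, 164 and 172 CPM, 3.25-fold, and AREG of the same family had a log2 fold change of -2.11. NRG1, a ligand of ERBB3 and ERBB4, fell 2.69-fold. The IGF-binding proteins IGFBP6, IGFBP4 and IGFBP5 had log2 fold changes of -1.40, -1.07 and -1.42. Among the fibroblast growth factors FGF2 had -1.20 and FGF1 0.93, so they did not move as a group, and the MET ligand HGF had 1.02. KITLG, the stem cell factor, had -1.26 and VEGFA -0.72. The gene lists overlap, so their counts are not independent. EREG, AREG and HBEGF are counted again among the MAPK output genes below, and ANGPTL4 among the adipocyte and lipid storage genes.

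Genes that report MAPK output were read beside the fall of HRAS reads. Of 27, 13 fell (48.1%) and 7 rose (25.9%), beside 20.3% each way over all genes tested. The median was -0.05, which library sizes alone turned to 0.03. EGR1 fell from 90.5, 80.5, 73.4, 120.4 and 115 CPM to 46.5, 45, 40.2, 48.6 and 48.9 CPM, 2.09-fold, and the immediate early genes IER3 and JUN fell 1.8-fold and 1.58-fold, all with no overlap. DUSP6, the ERK phosphatase, had a log2 fold change of -0.67 and SPRY2, a feedback inhibitor, -0.37. DUSP5, FOSL1, ETV4 and ETV1 rose by 0.24, 0.34, 0.35 and 0.53, and DUSP4 at 0.19 did not pass the test. HRAS was 1.61-fold lower in the same libraries, and its part in these changes and in the SASP changes was not tested.

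p53 target genes rose: 27 of 33 tested (81.8%) were higher and 2 (6.06%) lower, with a median of 0.40, and 22 of the 27 showed no overlap. Over all genes tested, 20.3% were called each way and 11.5% were higher without overlap. CDKN1A, the p21 CDK inhibitor, measured 467, 451, 464, 326 and 319 CPM in OIS-shp53 and 674, 653, 654, 430.0 and 426 CPM in OIS-shCEBPB-shp53, 1.37-fold higher (adjusted p = 8.75e-08). The groups overlapped for CDKN1A, since replicates 4 and 5 lay lower in both, but it was higher in all 5 pairs. In OIS-v-v it stood at 2025, 2002, 1954, 1152 and 1227 CPM. FAS, a death receptor, rose from 7.58, 7.18, 6.82, 5.94 and 5.77 CPM to 15.5, 16.2, 15.9, 13.8 and 13.1 CPM, 2.21-fold. TRIM22, an antiviral ubiquitin ligase, rose 3.84-fold, CCNG1 1.64-fold and PLK2 1.81-fold, while MDM2, which targets p53 for degradation, rose 1.25-fold. CYFIP2, FDXR, DDB2 and BBC3 rose by 1.84, 1.04, 0.84 and 0.75 on the log2 scale, and GDF15 and NTPCR fell by 0.27 and 0.18.

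G2/M genes rose together. Of 53 G2/M genes, 49 (92.5%) rose and none fell, with a median of 0.58 and 42 without overlap. Of all genes tested, 20.3% rose and 11.5% were higher without overlap. In OIS-v-v against Grow-v-v all 53 fell, with a median of -2.31, beside 24.9% of all genes tested there. CDC20, the activator of the anaphase-promoting complex, measured 40.2, 43.2, 45.3, 40.9 and 36.2 CPM in OIS-shp53 and 71.1, 75.9, 74.7, 77.3 and 68 CPM in OIS-shCEBPB-shp53, 1.76-fold higher (adjusted p = 1.12e-09). Grow-v-v cells held 121 to 331 CPM. ANLN, needed for cytokinesis, the survivin gene BIRC5 and the checkpoint kinase BUB1 rose 1.7-fold, 1.59-fold and 1.65-fold. MKI67, the proliferation marker, rose from 76.2, 85.5, 84.2, 71.8 and 68 CPM to 115, 101, 99, 104 and 93.1 CPM, 1.31-fold. The 4 G2/M genes that did not pass the test were PSRC1, LBR, CTCF and CBX5.

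S phase genes moved less, with 23 of 42 (54.8%) higher, none lower and a median of 0.19. Of all genes tested, 20.3% were called each way. MCM5 of the replicative helicase, the sliding clamp PCNA, BRIP1 and RAD51AP1 rose 1.26-fold, 1.24-fold, 1.4-fold and 1.52-fold. Without the replicate block 12 S phase genes rose, and with DESeq2 13. Among 15 CDK inhibitors and RB family genes, 7 rose (46.7%) and 2 fell (13.3%). CDKN2A, which encodes p16, rose from 40.2, 38, 39.4, 33.8 and 30.8 CPM to 51.6, 51.5, 53, 42.1 and 46.8 CPM, 1.33-fold (adjusted p = 7.51e-06), so transcripts of an arrest gene and of mitotic genes rose in the same libraries. CDKN2C rose 1.45-fold, CDK6 1.27-fold and CCND2 1.47-fold, while CCND1 (log2 fold change 0.09, adjusted p = 0.12) did not pass the test.

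**Figure D2:**
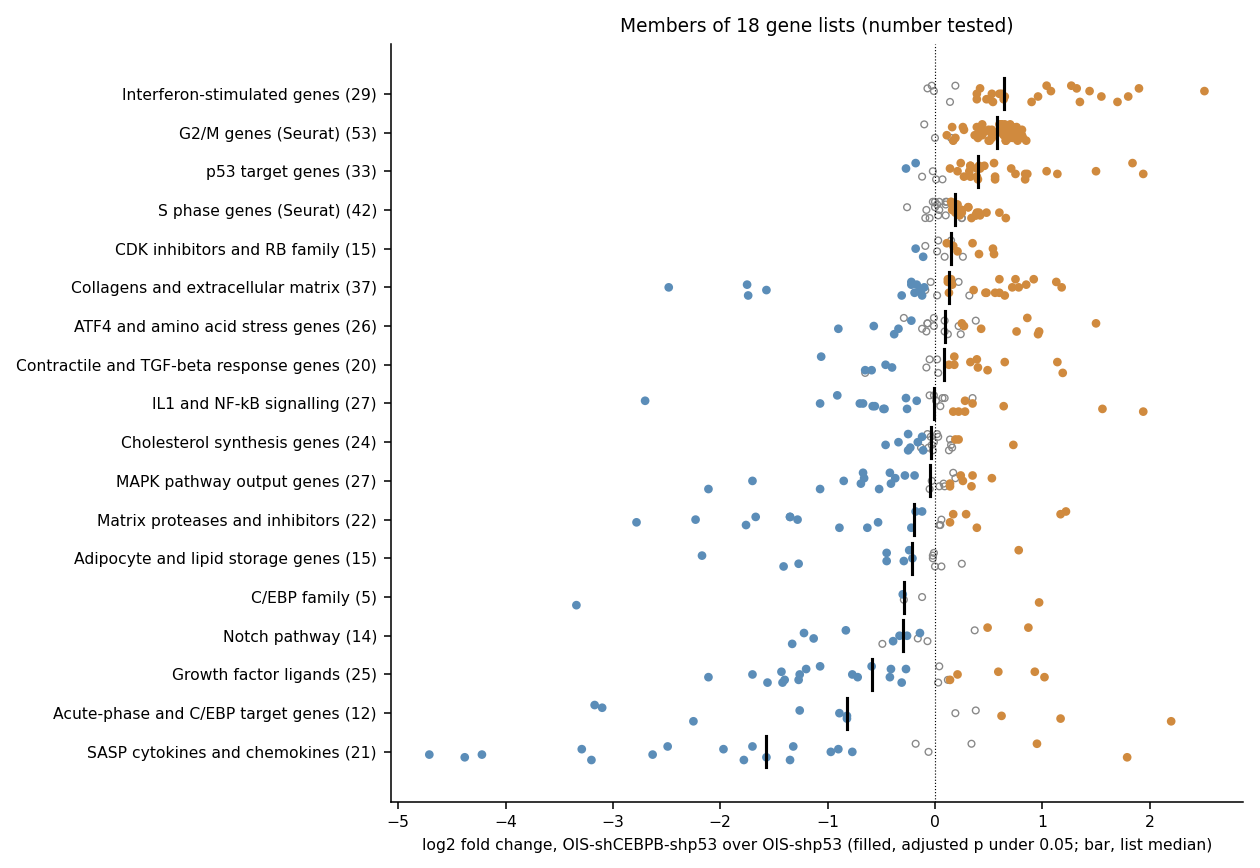
Log2 fold change of each tested member of 18 gene lists, OIS-shCEBPB-shp53 over OIS-shp53; filled points passed adjusted p under 0.05 (orange higher, blue lower), open points did not, and the black bar is the list's median. Medians ran from -1.57 for SASP cytokines and chemokines to 0.64 for interferon-stimulated genes.

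Interferon-stimulated genes rose in 24 of 29 cases (82.8%) and none fell, with a median of 0.64, beside 20.3% each way over all genes tested. OAS1, which senses double-stranded RNA, rose from 0.754, 1.44, 0.63, 2.08 and 2.18 CPM to 5.41, 4.94, 5.25, 11.2 and 13.8 CPM. OAS2 rose from 3.73, 4.91, 4.04, 8.02 and 8.27 CPM to 15.2, 17.9, 17.8, 27.3 and 30.8 CPM, 3.74-fold (adjusted p = 8.37e-11), and MX1, which blocks viral replication, rose 2.93-fold. IFI6 rose from 47.9, 52.3, 57.2, 62.1 and 74.8 CPM to 139, 132, 157, 138 and 175 CPM, and OAS3 rose 2.41-fold. Those that did not pass the test included OASL at 0.14 and the regulators STAT2, IRF1 and IRF9 at -0.03, -0.01 and 0.19.

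Collagens and other matrix genes moved in both directions. Of 37, 19 rose (51.4%) and 13 fell (35.1%), with a median of 0.13, beside 20.3% each way over all genes tested. The examples here were picked after their values were seen. The small leucine-rich proteoglycans BGN, DCN and LUM had log2 fold changes of -1.74, -1.75 and -1.57; DCN went from 46.3, 42.1, 41.5, 60.9 and 63.7 CPM to 14.4, 13, 14.5, 16.7 and 17.6 CPM. COL8A1, a short-chain collagen, fell from 272, 261, 245, 108 and 98.2 CPM to 43.1, 46.6, 46.7, 19.6 and 20.5 CPM, 5.58-fold. Among the fibrillar collagens COL5A2 and COL1A2 rose by 0.60 and 0.48 and COL3A1 fell by 0.13. The elastic fibre genes ELN, FBN2 and FBLN5 rose by 1.13, 0.72 and 0.56, and the matricellular CCN1 by 0.60. COL1A1, the main chain of type I collagen, did not pass the test (log2 fold change 0.02, adjusted p = 0.638).

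Among 20 contractile and TGF-beta response genes, 10 rose (50%) and 5 fell (25%), beside 20.3% each way over all genes tested. ACTA2, smooth muscle actin, rose from 39.3, 41.1, 40.8, 35.5 and 37.3 CPM to 90.8, 93.5, 101, 87.2 and 74.5 CPM, 2.27-fold (adjusted p = 8.37e-11). Its exons overlap those of FAS on the opposite strand, which rose as well. TPM1 rose 1.57-fold and LMOD1 by 1.14 on the log2 scale. The ligand TGFB2, the receptor TGFBR1 and the TGF-beta targets SMAD7, PMEPA1 and TGFBI had log2 fold changes of -1.06, -0.40, -0.46, -0.65 and -0.59.

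Notch pathway genes fell in 8 of 14 cases (57.1%) and rose in 2 (14.3%), with a median of -0.30. The share over all genes tested was 20.3% each way. The receptor NOTCH1 fell from 118, 117, 116, 109.6 and 105 CPM to 55.3, 53.5, 48.8, 51 and 53.2 CPM, 2.19-fold (adjusted p = 3.63e-11). Its target HEY1 fell 2.34-fold and the ligand DLL1 had a log2 fold change of -1.33. The ligand JAG1 rose from 22.8, 21.3, 22.8, 24 and 24 CPM to 48.3, 47.5, 44.7, 36.5 and 36.5 CPM, 1.83-fold, and RBPJ, the DNA-binding partner of active Notch, rose 1.4-fold. HES1, another target, at -0.16 did not pass the test.

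Adipocyte and lipid storage genes fell in 8 of 15 cases (53.3%) and rose in 1 (6.67%), with a median of -0.21. The share over all genes tested was 20.3% each way. DGAT2, which makes triglyceride, fell from 7.33, 8.62, 7.56, 3.19 and 3.85 CPM to 1.22, 1.56, 2.27, 0.954 and 0.834 CPM. ANGPTL4 and G0S2, which restrain lipases, fell 2.41-fold and 2.65-fold, and the lipase PNPLA2 1.37-fold. PPARG, the fat cell regulator, was the 1 that rose, by 0.78. In replicates 4 and 5 alone the median was 0.01, with 6 lower and 1 higher. Of 24 cholesterol synthesis genes, 8 (33.3%) were lower and 3 (12.5%) higher, with a median of -0.04, not far from that share. With library sizes alone 4 were lower and 8 higher, with a median of 0.05. TM7SF2, a sterol reductase, was highest at 0.73.

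Within the C/EBP family itself, 5 members were tested. CEBPD, a close relative that shares binding sites with C/EBPbeta, rose from 83.4, 79.8, 79.9, 73.1 and 68.8 CPM to 146, 150.0, 149.9, 150.1 and 171 CPM, 1.96-fold with no overlap (adjusted p = 6.61e-09). DDIT3, the stress factor CHOP, fell 1.23-fold, with -0.15 in replicates 1 to 3 (adjusted p = 0.0814) and -0.50 in replicates 4 and 5 (adjusted p = 5.04e-08). CEBPG, a partner of ATF4, stood at 30.1, 28.6, 27.9, 42.1 and 43.8 CPM and then at 30.8, 31.1, 31.8, 23.9 and 23.7 CPM, and did not pass the test over all pairs (adjusted p = 0.11). The sets differed, with a log2 fold change of 0.10 in replicates 1 to 3 (adjusted p = 0.179) and -0.87 in replicates 4 and 5 (adjusted p = 2.75e-30). CEBPZ at -0.12 did not pass either, and CEBPA and CEBPE were too low to test.

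The split seen for CEBPG ran through the ATF4 and amino acid stress genes. ATF4 is known to turn on amino acid synthesis and transport when amino acids run short. Over all 5 pairs 8 of 26 rose (30.8%) and 5 fell (19.2%), with a median of 0.09, beside 20.3% each way over all genes tested. In replicates 1 to 3 alone 18 rose and 3 fell, with a median of 0.39, and in replicates 4 and 5 alone 2 rose and 21 fell, with a median of -0.39. Over all genes, 22.7% rose and 22.0% fell of 13536 tested in replicates 1 to 3, and 16.8% rose and 17.0% fell of 13396 tested in replicates 4 and 5. ASNS, asparagine synthetase, measured 11.4, 10.5, 11.5, 21 and 16.7 CPM in OIS-shp53 and 43, 41.3, 38.8, 13.6 and 12.4 CPM in OIS-shCEBPB-shp53. PSAT1 of serine synthesis measured 14.7, 17, 16.7, 29.7 and 29.8 CPM and then 62.6, 52.1, 51, 26.1 and 23.3 CPM. Both genes were higher with knock-down in every one of the first 3 pairs and lower in the last 2; they were picked after their values were seen. DDIT4, a stress-induced mTORC1 inhibitor, was lower in all 5 pairs, 1.87-fold, with log2 fold changes of -0.61 in replicates 1 to 3 and -1.28 in replicates 4 and 5. NUPR1, a stress cofactor, was higher in all 5, 2.82-fold, with 1.99 in replicates 1 to 3 (adjusted p = 5.78e-59) and 0.40 in replicates 4 and 5, where it did not pass the test (adjusted p = 0.118). Over the whole table, 103 of the 3400 genes called in both sets went in opposite directions. What differs between the sets is not labelled, and its part in these changes was not tested.

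**Figure D3:**
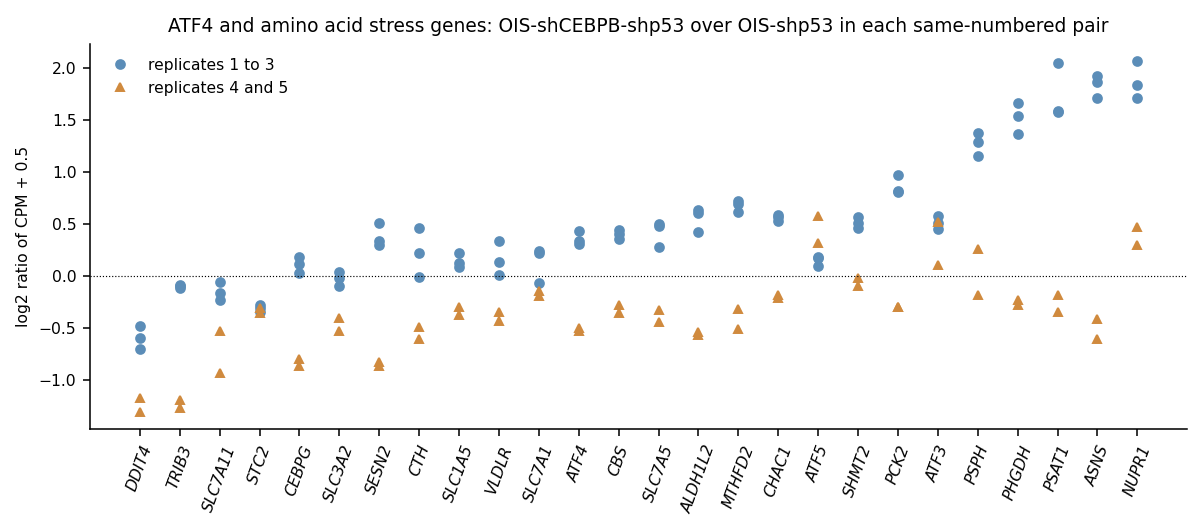
Log2 ratio of CPM + 0.5, OIS-shCEBPB-shp53 over OIS-shp53, within each same-numbered pair for the 26 tested ATF4 and amino acid stress genes; circles are replicates 1 to 3 and triangles replicates 4 and 5. The triangles lie below the circles for most genes, and for ASNS and PSAT1 the sets lie on opposite sides of 0.

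The knock-down response was next read against the change that OIS brings in cells with both empty vectors, from OIS-v-v and Grow-v-v, which share no library with the comparison. Of 13344 genes tested there, 49.7% were called. Among 3290 genes raised in OIS-v-v, 1324 (40.2%) fell and 387 (11.8%) rose with knock-down in p53-depleted cells. Among 3238 genes lowered in OIS-v-v, 1324 (40.9%) rose and 312 (9.64%) fell. Over all 13123 genes tested in both comparisons, 20.2% rose and 20.4% fell. These shares moved with the scaling: with library sizes alone, 905 of 3208 raised genes fell (28.2%) and 744 rose (23.2%), while 1832 of 3270 lowered genes rose (56%) and 211 fell (6.45%). The share that fell was higher for genes with a larger rise in OIS: 35.6% of 2447 genes raised up to 2-fold, 48.9% of 567 raised 2 to 4-fold, 58.4% of 149 raised 4 to 8-fold and 70.1% of 127 raised at least 8-fold, with medians of -0.07, -0.22, -0.55 and -0.79. SASP genes are among the latter: IL1B, CSF3 and CCL20 rose by 3.34, 3.56 and 3.98 in OIS-v-v. The fall of HRAS reads touches this relation too, and its part was not tested.

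**Figure D4:**
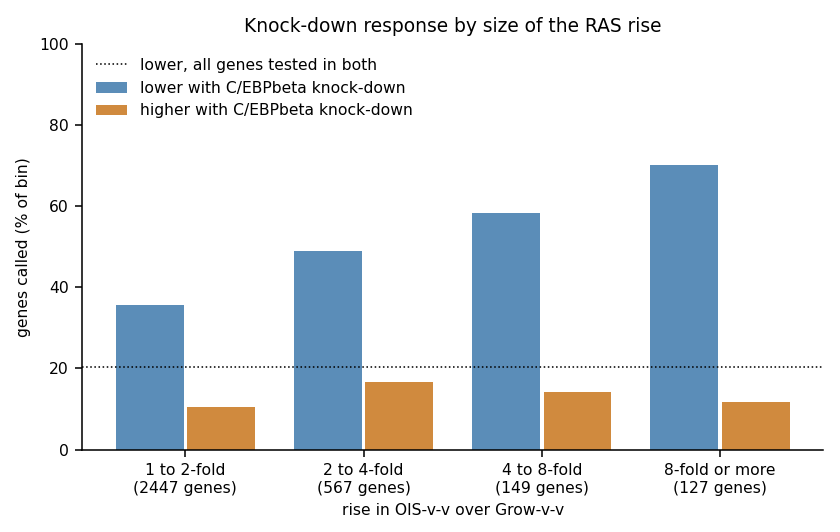
Share of genes called lower (blue) or higher (orange) with C/EBPbeta knock-down in p53-depleted OIS, by the fold rise of the gene in OIS-v-v over Grow-v-v; the dotted line marks the 20.4% called lower over all genes tested in both. The share called lower went from 35.6% to 70.1% across the 4 bins, and the share called higher stayed between 10.5% and 16.6%.

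The same hairpin was then compared in OIS cells with the empty p53 vector, again from separate libraries. In OIS-shCEBPB against OIS-v-v, 4270 of 13396 genes were called (31.9%), 2261 higher (16.9%) and 2009 lower (15.0%). CEBPB fell there from 296, 286, 329, 259 and 307 CPM to 36.6, 40.1, 42.7, 31.4 and 26.6 CPM, a log2 fold change of -3.07. Of the genes called in both backgrounds, 3292, which are 61.1% of the calls in p53-depleted and 77.7% of those in vector cells, 3281 went the same way. Log2 fold changes over the 13215 genes tested in both had a Pearson r of 0.88, given as a description. IL1B had -2.99, CXCL8 -1.95, PTX3 2.06 and BIRC3 1.54 in vector cells. HRAS also moved there, by -0.57. G2/M genes rose in 42 of 53 cases with a median of 0.42, p53 targets in 27 of 33 with a median of 0.34, and S phase genes in 5 of 42 with 5 lower and a median of -0.01.

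The difference between the knock-down effects was tested directly in 1 fit of the 4 OIS groups. It passed for 104 of 13873 genes (0.750%), 32 (0.231%) with a higher and 72 (0.519%) with a lower log2 fold change in p53-depleted cells. MMP3 was among them, with a log2 fold change of -2.24 in vector cells and -2.78 in p53-depleted cells, a difference of -0.53 ± 0.06 (adjusted p = 3.97e-05). IL24, THBD and C3 also fell further in p53-depleted cells, by differences of -0.64, -0.85 and -0.75. FGF7, a keratinocyte growth factor, stood at 4.27, 2.87, 2.83, 4.2 and 4.87 CPM in OIS-shp53 and 1.38, 1.18, 1.34, 1.38 and 1.19 CPM with knock-down, against 2.09, 2.07, 1.75, 2.43 and 2.76 CPM in OIS-v-v and 1.49, 1.28, 1.7, 1.86 and 2.38 CPM in OIS-shCEBPB, a difference of -1.20 (adjusted p = 0.00592). A gene without a name in the tables used, ENSG00000006075, had a log2 fold change of -4.27 in p53-depleted cells and -1.69 in vector cells. The p53 targets TRIM22 and FAS rose further in p53-depleted cells, by 0.89 and 0.52, as did the interferon-stimulated IFI6 and ISG15, by 0.80 and 0.53. ODC1, of polyamine synthesis, fell in vector cells (-0.72) and did not pass the test in p53-depleted cells (-0.08), a difference of 0.66. CCND2 and SLC7A14 rose less in p53-depleted cells, by differences of -0.67 and -1.34.

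Growth factor ligands had 4 of 25 with a lower value and SASP cytokines and chemokines 3 of 21, beside 0.519% of all genes in that direction. Of the p53 targets, 3 of 33 had a higher value, beside 0.231% of all genes. The G2/M and S phase lists had none at that threshold, with median differences of 0.19 and 0.21, and a p that misses the threshold does not show that the backgrounds acted alike. The number of calls moved with the fit: 6 without the replicate block, 9 with all 5 groups in the fit and 1034 in replicates 1 to 3 alone. DESeq2 on the single libraries gave 155 calls. When counts were summed within each set, edgeR gave 0 calls. There 502 of 15550 genes had an unadjusted p under 0.05, a share below the 0.05 that no difference would give. Leaving out 1 library gave between 59 and 118 calls, with 67, 65 and 59 without OIS-shCEBPB-shp53 replicates 1, 2 and 3 and 65 without OIS-shp53 replicate 1.

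**Figure D5:**
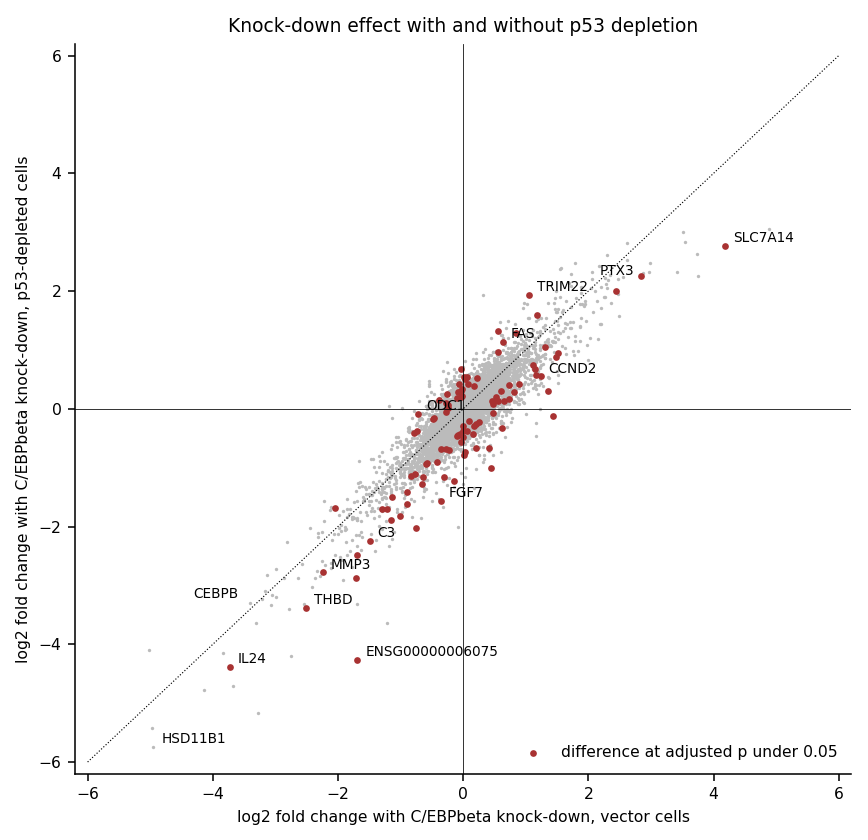
Log2 fold change with C/EBPbeta knock-down in p53-depleted OIS cells (vertical axis) against vector OIS cells (horizontal axis) for 13215 genes tested in both; red points passed the test of the difference at adjusted p under 0.05 and the dotted line marks equal effects. Most points lie near the line, MMP3, IL24, THBD, C3 and FGF7 lie below it, and TRIM22 and FAS lie above it.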

How the data were processed

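RNA-seq counts per gene were used as deposited: the authors aligned reads with STAR and counted them with featureCounts of Subread (per the labels) against hg19, and the strand setting of this table is not given in the sources used here. Without a stated strand setting, 39 of the 114 named genes, which share exon bases with another gene, are less certain (IL6 with IL6-AS1, among others). Groups came from the labels. Counts of 13428 genes that passed filterByExpr were tested with edgeR 4.0.16 (R 4.3.3): TMM scaling, quasi-likelihood F test, Benjamini-Hochberg adjustment over all genes tested, a gene called at adjusted p under 0.05, with replicate number as a block. Same-numbered libraries deviated together in each of the 5 pairs (r = 0.34 to 0.54). No pair of libraries agreed within sampling noise, so all were counted. Within a replicate set, pairs came much closer to it. Their chi-square per gene, a measure of disagreement beyond counting noise, was 1.94 to 3.8, against 13 to 28.8 between sets. P-values within a set thus measure only the small spread between near-alike libraries. Where nothing says that replicates came from separate cultures, p-values measure the spread between these samples. Symbols matched 42662 of 44503 genes (95.9%), and 509 of 518 list genes. Members, gene lists and tests were chosen with earlier results of these data known. Genes named were CEBPB, the C/EBP family, the 12 largest falls and rises at 1 CPM or more without overlap, up to 4 members of each list by p, 12 fixed genes, and the 6 largest differences between backgrounds each way; list members outside the rule were named after their values were seen, and a few genes that the rule selects are not reported here. CPM was computed from the counts with TMM factors over 25 libraries. The fits were tested on simulated data. Alternatives were DESeq2 1.42.0, other scalings, filters, thresholds, no block, all 5 groups, single libraries left out and, added after seeing the data, each replicate set alone or summed.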

Additional observations from a re-analysis of the deposited data

Results flagged for a closer look

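In 5 of 228 gene and group pairs, 1 library lay far from the other 4, and chance flags about 5% of such groups. CEBPD had its highest value, 171 CPM, in OIS-shCEBPB-shp53 replicate 5, with the next at 150.1 CPM. ELOVL2 had its lowest, 1.86 CPM, in OIS-shp53 replicate 5, with the next at 2.1 CPM. In OIS-shCEBPB-shp53, PCNA was highest in replicate 3 (52.8 CPM, next 48), BUB1 highest in replicate 4 (45.4 CPM, next 41.9) and MDM2 lowest in replicate 1 (51.7 CPM, next 55).

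The knock-down effect differed between p53-depleted and vector cells, by edgeR's test of the difference, for 19 of the genes named. The naming rule itself took in the largest differences each way by this test. Those genes, listed below up to FGF7 and from TRIM22 to ISG15, were bound to appear. The count of 19 is therefore partly set by the rule and is no result of its own. The log2 fold change was lower in p53-depleted cells, by the following differences, for ENSG00000006075 (-2.60), GASK1B (-1.53), BEAN1 (-1.43), SLC7A14 (-1.34), LCE1F (-1.29), FGF7 (-1.20), THBD (-0.85), C3 (-0.75), CCND2 (-0.67), IL24 (-0.64), ANGPTL4 (-0.62) and MMP3 (-0.53). It was higher for TRIM22 (0.89), IFI6 (0.80), ENSG00000260108 (0.72), ODC1 (0.66), HSCB (0.55), ISG15 (0.53) and FAS (0.52). GASK1B lay at 0.467 to 1.09 CPM in the 10 p53-depleted libraries, where its own change did not pass the test.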

How the results depend on the processing

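The 5450 genes called with p53 depleted became 3936 at adjusted p under 0.01, 4004 with DESeq2, 3811 with all 5 groups in the fit, 3711 without the replicate block and 4566 to 5245 with 1 library left out. They became 1362 at 1.5-fold, 558 at 2-fold and 3300 with counts summed by replicate set. In vector cells the 4270 calls became 2773 at adjusted p under 0.01, 1189 at 1.5-fold, 517 at 2-fold, 1876 with summed sets and 2290 without the replicate block, and the share of rises went from 53% to 72.3% with library sizes alone. The 104 differences between backgrounds became 45 at adjusted p under 0.01, 31 at 1.5-fold, 11 at 2-fold and 9 with all 5 groups. With summed sets they became 0 (502 of 15550 genes tested at an unadjusted p under 0.05 by edgeR). They became 379 with no filter, 6 without the replicate block, 1034 in replicates 1 to 3, 280 in replicates 4 and 5, and 59 to 118 with 1 library left out. The OIS response of 6626 genes became 3707 at 1.5-fold, 1991 at 2-fold and 3707 with summed sets.

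With library sizes alone, list medians moved to 0.08 for IL1 and NF-kB, -0.11 for proteases, 0.49 for p53 targets, 0.22 for matrix, 0.17 for contractile genes, 0.03 for MAPK, 0.05 for cholesterol, -0.50 for growth factors, 0.28 for S phase, 0.67 for G2/M and 0.09 for all genes (0.01 with upper-quartile factors). In replicates 4 and 5 they moved to -0.50 for the C/EBP family, -0.23 for acute-phase genes, 0.04 for matrix, -0.12 for MAPK, 0.01 for adipocyte genes and -0.39 for ATF4 genes, and in replicates 1 to 3 to 0.83 for interferon-stimulated genes. Genes raised in OIS and higher with knock-down numbered 227 without the replicate block, 744 with library sizes alone (905 raised genes fell there) and 581 in replicates 1 to 3, and genes lowered in both 187 without the block and 554 in replicates 1 to 3. At 1.5-fold in both comparisons, 364 raised genes fell and 80 rose, and 321 lowered genes rose and 69 fell.

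Without the replicate block, 7 matrix genes were lower (13 with it), 4 cholesterol genes lower (8), 12 S phase genes higher (23) and 4 CDK inhibitor and RB genes higher (7). Some calls rested on 1 replicate set. CEBPZ passed in replicates 1 to 3 (-0.23) and not in 4 and 5, as did DHCR7 (-0.12 in 4 and 5), BEAN1 (-0.36) and NUPR1 (0.40), while CCND1 (0.22), DDIT3 (-0.50) and ODC1 (-0.17) passed in replicates 4 and 5 and not in 1 to 3. Single genes changed direction for CEBPG (0.10) and GASK1B (0.23) in replicates 1 to 3, CEBPZ (0.03), IL1A (0.12) and COL1A1 (-0.01) in replicates 4 and 5, ODC1 (0.01) with library sizes alone, and GASK1B without replicate 4 or 5 of either group (-0.32 to 0.01 over all libraries left out). With DESeq2, all 114 named genes kept their direction and their side of the threshold. The cause of these changes was not tested. Genes with under 10 counts per library, such as HSD11B1 and DCLK3 on their low side, have folds that depth limits.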
